A study of Mus musculus with 6 samples.

Results

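The genes described here encode non-collagen adhesive and matricellular proteins of the extracellular matrix (ECM): fibronectin (*Fn1*), periostin (*Postn*), tenascin C (*Tnc*), SPARC (*Sparc*) and its relative SPARC-like 1 (*Sparcl1*), osteopontin (*Spp1*) and the thrombospondins *Thbs1*, *Thbs2*, *Thbs3* and *Thbs4*. They were chosen by gene symbol, as 10 of the 37384 symbols counted, and all 10 were expressed above the count filter of the test. RNA was read from floated adipocytes of inguinal subcutaneous white adipose tissue (scWAT) of male mice at postnatal day 7. All animals carried floxed *Lats1* and *Lats2* alleles (Lats1f/fLats2f/f), without Cre in the 3 L1L2-FF control libraries and with Adipoq-Cre (Lats1f/fLats2f/fAdipoqCre) in the 3 L1L2-AKO libraries. Each library came from adipocytes of 4 pooled mice, so that the spread between libraries is a spread between pools. *Adipoq* drives the Cre in adipocytes, and per the paper its Cre is also active in some fetal precursors, while after birth it is limited to mature adipocytes. Cells of other types that floated with the fat after collagenase digestion also gave RNA.

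Fibronectin is an adhesive glycoprotein that cells assemble into fibrils through integrins, and newly laid collagen is organised on it. Matricellular proteins such as periostin, tenascin C, SPARC, osteopontin and the thrombospondins are secreted into the matrix, where they act mainly on cell contacts, growth factors and the ordering of collagen instead of bearing load themselves. Many of them are low in resting tissue and high in wounds and fibrosis. LATS1 and LATS2 are the kinases of the Hippo pathway that restrain the transcriptional co-activators YAP and TAZ, which act through TEAD transcription factors.

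*Lats1*, a targeted gene, was lower in all 3 libraries labelled L1L2-AKO, with a log2 change (log2 of the fold, L1L2-AKO-labelled over L1L2-FF) of -1.04 (edgeR, adjusted p = 0.00131). *Lats2*, the other targeted gene, went against the label, at TMM-normalized CPM (counts scaled to library size) of 74.9, 85.7 and 68.5 in L1L2-FF and 96.2, 126 and 135 in the L1L2-AKO-labelled libraries (log2 change 0.64, edgeR, adjusted p = 0.0278, and 0.104 without L1L2-AKO replicate 2). Counts per gene do not separate floxed exons from the rest, and 42.4% of the exon bases of *Lats2* are shared with the annotated gene *Gm49361*, which has no row in the counts. Every direction given here is therefore that between L1L2-FF and the L1L2-AKO-labelled libraries. Total counts lay between 30548473 and 32107917. Markers of adipocytes were abundant in all libraries. The summed level of the 12 markers was 28960 to 35564 CPM in L1L2-FF and 25985 to 34414 CPM in the L1L2-AKO-labelled libraries. Of the 15674 genes tested with edgeR's quasi-likelihood method, 16.5% differed at an adjusted p under 0.05, 9.28% higher and 7.18% lower in the L1L2-AKO-labelled libraries. The number of such genes was 2580 with all libraries, 1290 (8.05%) without L1L2-FF replicate 1, 1281 (7.97%) lacking L1L2-AKO replicate 2 and 1374 (8.54%) lacking L1L2-AKO replicate 3.

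Of the 10 genes, *Thbs1*, *Spp1*, *Thbs2* and *Fn1* rose in the L1L2-AKO-labelled libraries, 0 fell, and 6 did not pass the test. At an unadjusted p under 0.05 in edgeR's test, which 30.8% of all tested genes reached, 5 were higher and 1 lower. Limma-voom, which called 15.6% of all tested genes, called 4 higher and 0 lower, and DESeq2, which called 19.1% of the genes it tested, 5 higher and 0 lower. The rises were 11.6-fold for *Thbs1*, 6.03-fold for *Spp1*, 4.45-fold for *Thbs2* and 1.72-fold for *Fn1*. The median log2 change over the 10 genes was 0.30, and that of all tested genes was -0.02. In 7 of the 10 the TMM-normalized CPM of the genotypes did not overlap, 5 of them higher and 2 lower in the L1L2-AKO-labelled libraries, beside 36.4% of all tested genes. *Sparcl1*, among the lower genes, did overlap in counts and on the length-scaled level given further below. Leaving out any single library gave 3 or 4 genes that rose and 0 that fell. In bulk RNA, fewer cells of a type and less RNA per cell cannot be told apart.

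**Figure D1:**
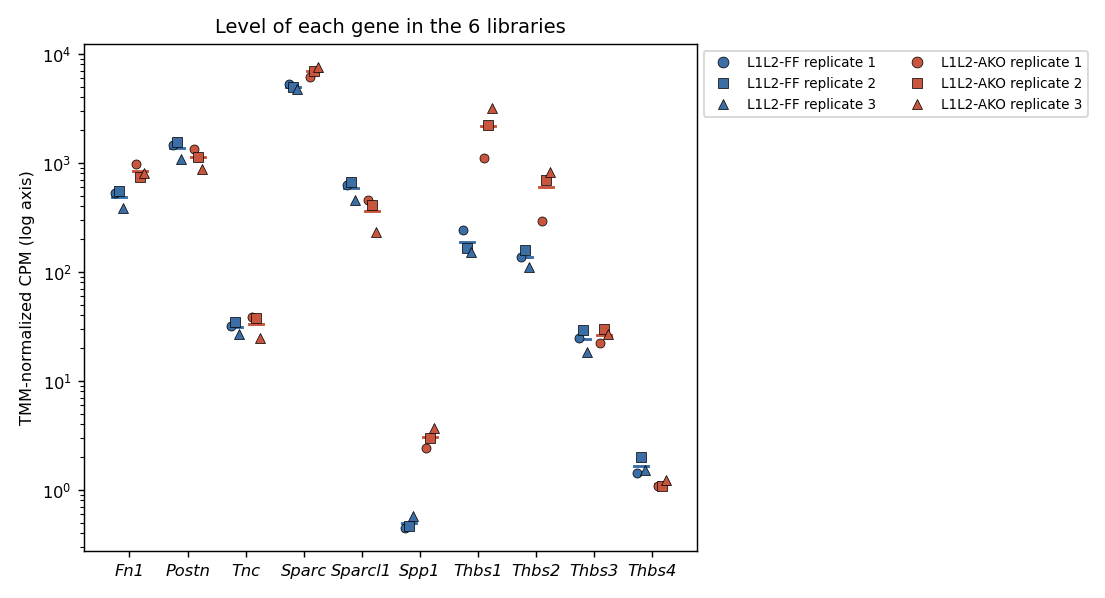
TMM-normalized CPM (log axis) of each of the 10 genes in the 3 L1L2-FF libraries (blue) and the 3 L1L2-AKO-labelled libraries (red), with a short line at the mean and 1 symbol shape per replicate number. The red points of *Thbs1* (1096 to 3214) and *Thbs2* (290 to 825) lie apart from the blue ones, and those of *Postn*, *Tnc* and *Thbs3* overlap with them.

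Thrombospondins are the largest family among these genes. Thrombospondin 1 and 2 form trimers that bind CD36 and CD47 and inhibit angiogenesis, and thrombospondin 1 activates latent TGFβ. Thrombospondin 3 and 4 belong to the pentameric branch of the family. *Thbs1* (mm10 chromosome 2, 118111876 to 118127133, plus strand) was counted at 243, 165 and 152 CPM for replicates 1 to 3 of L1L2-FF and at 1096, 2224 and 3214 CPM in the L1L2-AKO-labelled libraries, replicates 1 to 3. Every one of the latter was far above the highest L1L2-FF library. The mean went from 187 ± 49.1 to 2178 ± 1060.0 CPM (SD, n = 3 each), with a log2 change of 3.54 (standard error, SE, 0.408, edgeR, adjusted p = 0.00141). The rise was the 92nd largest among the 15674 tested genes.

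*Thbs2* (chromosome 17, 14665500 to 14694235, minus strand) was at 137, 159.8 and 110.4 CPM in L1L2-FF. It reached 290, 695 and 825 CPM in the L1L2-AKO-labelled libraries, the lowest being replicate 1, as for *Thbs1*. The log2 change was 2.15 (SE 0.362, edgeR, adjusted p = 0.00634), and the genotypes did not overlap. The spread among the L1L2-AKO-labelled libraries was wide for both genes, with a coefficient of variation of 48.7% for *Thbs1* and 46.3% for *Thbs2*, against 26.2% and 18.2% in L1L2-FF. With each library left out in turn, *Thbs1* kept a log2 change of 3.16 to 3.86 and *Thbs2* one of 1.87 to 2.49, and the adjusted p of edgeR's test stayed at or below 0.00843 for *Thbs1* and 0.035 for *Thbs2*.

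The other two thrombospondins were low and did not pass the test. *Thbs3* (chromosome 3, 89215180 to 89226837, plus strand) was counted at 24.6, 29.1 and 18.3 CPM in L1L2-FF and at 22.2, 29.9 and 26.9 CPM in the L1L2-AKO-labelled libraries. These ranges overlap, and the log2 change was 0.14 (SE 0.191, edgeR, adjusted p = 0.69). *Thbs3* shares 318 exon bases, 6.6% of its exons, with *Mtx1* on the opposite strand, which had 1183 to 1341 counts per library, so part of the *Thbs3* count may belong to its neighbour. *Thbs4* (chromosome 13, 92751590 to 92794818, minus strand) had only 45, 64 and 47 counts in L1L2-FF and 36, 34 and 35 counts in the L1L2-AKO-labelled libraries. All 3 of the latter were lower, at 1.09, 1.08 and 1.22 CPM against 1.44, 1.98 and 1.51 CPM. Its log2 change of -0.54 (SE 0.283) did not pass edgeR's test (adjusted p = 0.242).

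Whether members of a family moved by different amounts was asked from the ratio of their counts within each library, which no scaling between libraries can change. The log2 ratio of *Thbs1* to *Thbs2* was 0.83, 0.05 and 0.46 for replicates 1 to 3 of L1L2-FF and 1.92, 1.68 and 1.96 in the L1L2-AKO-labelled libraries. The 3 libraries of each label kept apart, with a difference of 1.40 between the means. The ratio of *Thbs1* to *Thbs3* differed by 3.29, that of *Thbs2* to *Thbs3* by 1.88 and that of *Thbs3* to *Thbs4* by 0.67. For *Sparc* to *Sparcl1* the log2 ratio was 3.08, 2.91 and 3.38 in L1L2-FF and 3.77, 4.07 and 5.03 in the L1L2-AKO-labelled libraries, a difference of 1.17. In each of the 7 pairs compared the ratios did not overlap between the labels, and each exact permutation test (two-sided) gave p = 0.1, also after Benjamini-Hochberg adjustment over the 7 pairs. This is the smallest p that 3 libraries against 3 allow, so that none of these differences could pass a threshold of 0.05. The thrombospondin pairs share genes with each other, so they are not independent results. How often the ratio of any 2 genes does not overlap was not computed. Of single tested genes, 36.4% did not overlap between the labels.

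**Figure D2:**
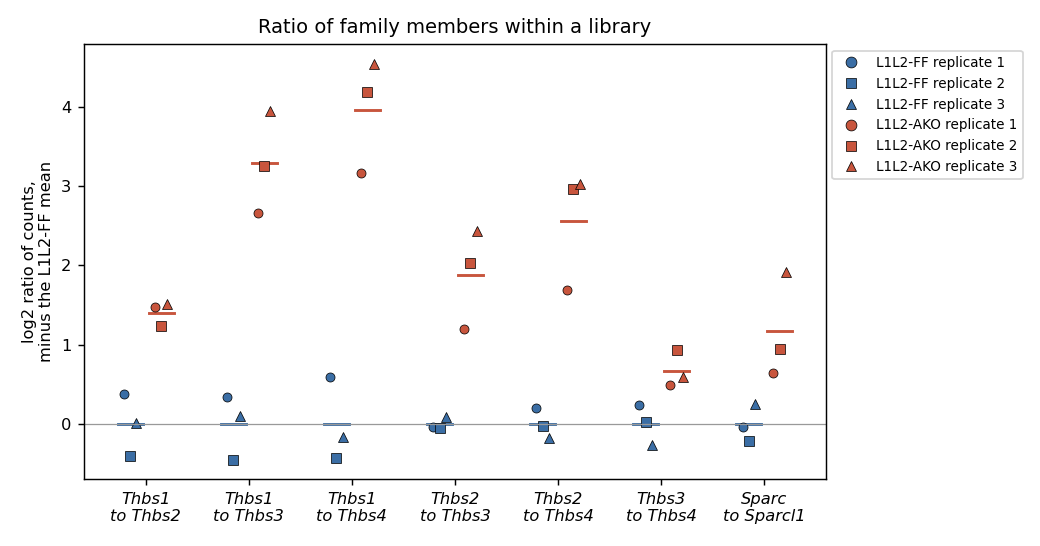
Log2 ratio of the counts of 2 family members within a library, minus the mean of that ratio in L1L2-FF (vertical axis), for the 6 thrombospondin pairs and for *Sparc* to *Sparcl1*. Blue symbols are L1L2-FF libraries, red symbols libraries labelled L1L2-AKO, and short lines the means. All red points lie above all blue points in each pair, with mean differences between 0.67 and 3.96.

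*Fn1* (chromosome 1, 71585520 to 71653200, minus strand) was abundant in both genotypes, at 528, 547 and 388 CPM in L1L2-FF and 973, 742 and 801 CPM in the L1L2-AKO-labelled libraries. Here L1L2-AKO replicate 1, the lowest for *Thbs1* and *Thbs2*, was the highest. The log2 change was 0.78 (SE 0.185, edgeR, adjusted p = 0.0255). This call was lost in 5 of the 6 fits that leave out 1 library. The adjusted p of edgeR's test was 0.0769, 0.0223 and 0.0541 without L1L2-FF replicate 1, 2 or 3, and 0.0687, 0.0535 and 0.0633 without L1L2-AKO replicate 1, 2 or 3, while the log2 change stayed between 0.64 and 0.87. Counts per gene do not tell the plasma form of fibronectin from the cellular forms made by alternative splicing.

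*Postn* (chromosome 3, 54361109 to 54391037, plus strand) encodes a matricellular protein that promotes collagen cross-linking and is often used as a marker of activated fibroblasts. It was more abundant in CPM than *Fn1*, at 1469, 1555 and 1094 CPM in L1L2-FF, and it did not rise, with 1349, 1134 and 878 CPM in the L1L2-AKO-labelled libraries. The ranges overlap, and the log2 change of -0.29 (SE 0.216) did not pass edgeR's test (adjusted p = 0.414). *Tnc* (chromosome 4, 63959785 to 64047015, minus strand) encodes a hexameric glycoprotein of wounds and developing tissue that loosens cell adhesion to fibronectin. It was counted at 31.9, 34.4 and 27.0 CPM in L1L2-FF and 38.3, 37.3 and 24.9 CPM in the L1L2-AKO-labelled libraries, with the highest and the lowest library both under the latter label. Its log2 change was 0.11 (SE 0.183, edgeR, adjusted p = 0.746).

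SPARC is a collagen-binding glycoprotein that takes part in the processing of procollagen, and it is secreted by adipocytes. SPARC-like 1, also called hevin, is its closest relative. *Sparc* (chromosome 11, 55394500 to 55423183, minus strand) was the most abundant of the 10 genes and the 11th most abundant by mean CPM among all tested genes. Its counts came to 167166, 159895 and 146453 in L1L2-FF and 204134, 218628 and 216533 in the L1L2-AKO-labelled libraries, without overlap. The log2 change was 0.46 (SE 0.197), which did not pass edgeR's test (adjusted p = 0.156). By DESeq2's Wald test, which called 19.1% of the genes it tested, the adjusted p was 0.0063.

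*Sparcl1* (chromosome 5, 104079111 to 104113733, minus strand) pointed the other way, at 631, 659.7 and 453.6 CPM in L1L2-FF and 451.0, 412 and 231 CPM in the L1L2-AKO-labelled libraries. The highest of the latter lay just under the lowest L1L2-FF library, so that the groups did not overlap in CPM, by a small margin. In counts they overlapped, with 14073 in L1L2-FF replicate 3 and 14952 in L1L2-AKO replicate 1. On the length-scaled level described further below the same libraries stood at 429 and 508, also with overlap. The log2 change of -0.67 (SE 0.265) did not pass edgeR's test (adjusted p = 0.127). L1L2-AKO replicate 3, the lowest library for *Sparcl1*, was also the lowest for a list of 10 endothelial markers, whose summed level was 2060 to 2751 CPM in L1L2-FF and 2583, 2074 and 1193 CPM in the L1L2-AKO-labelled libraries, replicates 1 to 3. Relative to that sum, *Sparcl1* was 22.9%, 26.1% and 22.02% in L1L2-FF and 17.5%, 19.9% and 19.3% in the L1L2-AKO-labelled libraries. Of these markers 0 passed edgeR's test (0 higher and 2 lower at an unadjusted p under 0.05, 1 lower by DESeq2 and 0 by limma-voom). Their part in the *Sparcl1* values was not tested.

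*Spp1* (chromosome 5, 104435118 to 104441050, plus strand) encodes osteopontin, a phosphoprotein that binds αv integrins and CD44 and is made by macrophages in inflamed and obese adipose tissue, among other cells. It was the rarest of the 10 genes in L1L2-FF, with 14, 15 and 18 counts, and had 80, 94 and 105 counts in the L1L2-AKO-labelled libraries. In CPM this was 0.447, 0.464 and 0.580 against 2.41, 2.98 and 3.67. The groups lay far apart for so few reads, and the log2 change was 2.59 (SE 0.306, edgeR, adjusted p = 0.00151). It stayed between 2.44 and 2.73 with each library left out, with an adjusted p of at most 0.0123 in edgeR's test. Of the 50-base stretches of *Spp1* transcripts, 11.6% also occur in the overlapping annotated gene *Gm42793*, which has no row in the counts. A list of 15 macrophage markers rose in the same libraries: 12 were higher and 0 lower, and their summed level was 275 to 538 CPM in L1L2-FF and 999 to 1114 CPM in the L1L2-AKO-labelled libraries. *Spp1* came to 0.122%, 0.0862% and 0.211% of that sum in L1L2-FF and 0.237%, 0.268% and 0.367% in the L1L2-AKO-labelled libraries. The part of macrophage RNA in the *Spp1* values was not tested.

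**Figure D3:**
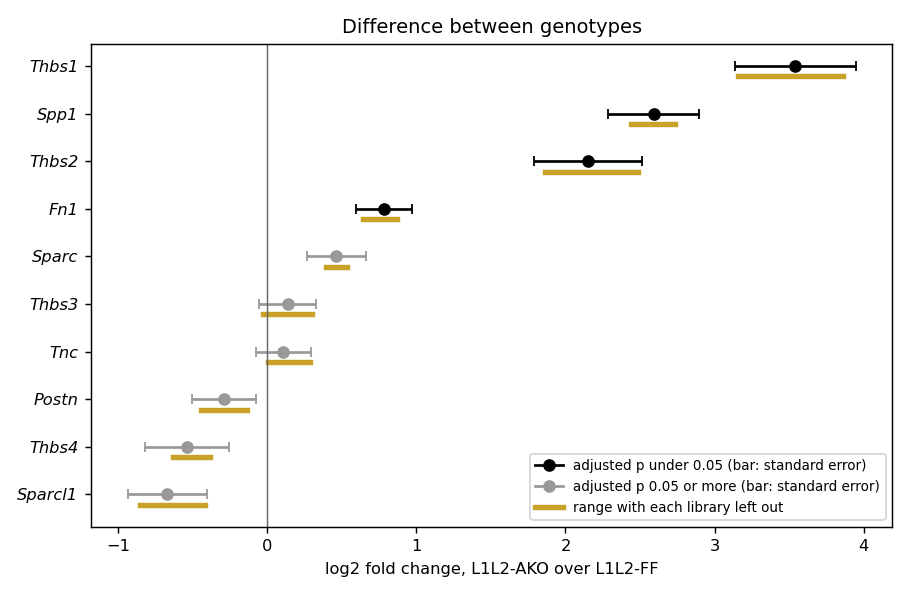
Log2 change of each gene between the L1L2-AKO-labelled libraries and L1L2-FF (horizontal axis), with its standard error. Black points had an adjusted p under 0.05 in edgeR's quasi-likelihood test and grey points did not. Yellow bars give the range over the 6 fits that each leave out 1 library. The values run from -0.67 for *Sparcl1* to 3.54 for *Thbs1*, and only the yellow bar of *Thbs3*, from -0.03 to 0.30, crosses 0.

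To compare levels between genes, counts were divided by the exon length of each gene and scaled to the same sum in each library (the TPM scale). The exon length joins all annotated exons of a gene, over all its transcripts, and came to 8702 bases for *Postn* and 6073 for *Thbs1*. Counts per gene do not show which transcripts were present, so the order and the shares of the genes hold for this length only. On this length-scaled level, *Sparc* led in L1L2-FF with 3831 ± 319 (SD, n = 3), followed by *Sparcl1* with 578 ± 135, *Postn* with 460.0 ± 102, *Fn1* with 122 ± 26.7, *Thbs1* with 89.2 ± 22.5 and *Thbs2* with 56.6 ± 13.3. The ranges of *Sparcl1* and *Postn*, of *Fn1* and *Thbs1*, of *Thbs1* and *Thbs2*, and of *Thbs3* and *Tnc* overlapped, so that the order within these pairs is not settled. In the L1L2-AKO-labelled libraries *Thbs1*, with 1076 ± 453, came next after *Sparc*, with 5565 ± 167. Their ranges did not overlap by this length, nor did those of *Thbs1* and *Postn*, the next gene. A shorter length for *Postn* would place it higher, which was not computed. For scale, *Col1a1*, the main chain of fibrillar collagen I, stood at 915 ± 203 in L1L2-FF and 1623 ± 87.0 in the L1L2-AKO-labelled libraries.

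Of the summed length-scaled level of the 10 genes, *Thbs1* held 2.1%, 1.5% and 1.56% for replicates 1 to 3 of L1L2-FF and 8.02%, 13.9% and 18.2% in the L1L2-AKO-labelled libraries. *Sparcl1* held 11.3%, 12.4% and 9.60% in L1L2-FF and 6.82%, 5.31% and 2.71% in the L1L2-AKO-labelled libraries, and *Postn* held 8.85%, 9.83% and 7.82% against 6.89%, 4.93% and 3.48%. These shares are parts of 1 sum, which was 4469 to 5601 in L1L2-FF and 7439 to 8203 in the L1L2-AKO-labelled libraries, so that a share can be smaller while the level of the gene is not. The level of *Postn* itself overlapped between the labels. The share of *Sparc* was 73.9%, 71.8% and 77.5% against 72.2%, 69.3% and 68.8%, with overlap. Together the 10 genes took 0.673% to 0.857% of all counts in L1L2-FF and 1.08% to 1.25% in the L1L2-AKO-labelled libraries.

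**Figure D4:**
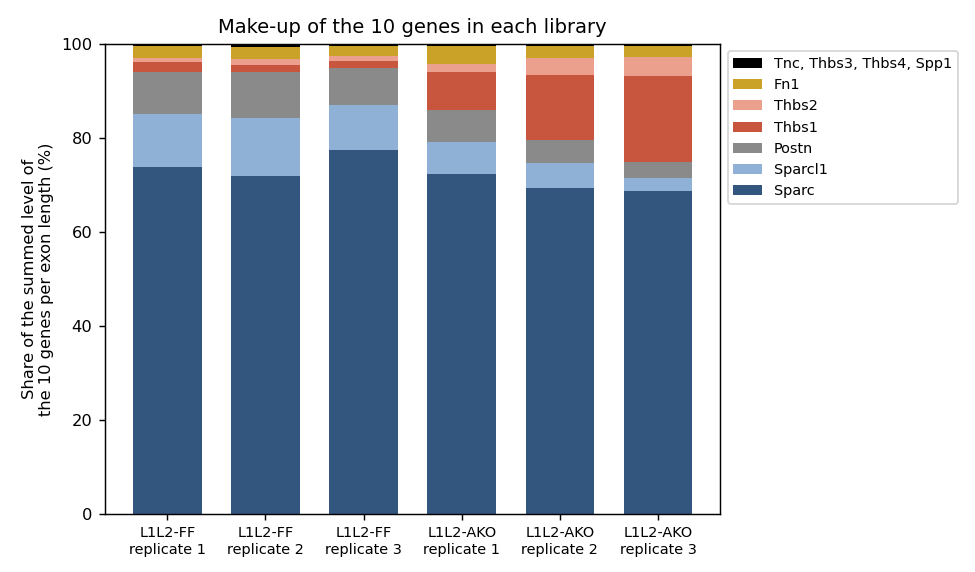
Share of each gene (%) in the summed length-scaled level of the 10 genes, stacked to 100% for each of the 6 libraries. The *Thbs1* block grows from 1.5% to 2.1% in L1L2-FF to 8.02% to 18.2% in the L1L2-AKO-labelled libraries, where those of *Sparcl1* and *Postn* are thinner.

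The promoter table used here, from RefSeq, has entries for 7 of the 10 genes, in 10 windows of the 250 bases before a transcript start (GRCm38.p6, the build of mm10). *Fn1*, *Thbs1* and *Sparcl1* are not among them. The windows of *Thbs2* and *Spp1* are shown as those of the genes that rose, and the window of *Thbs4* because it is the one that holds GGAATG, the core of the motif bound by TEAD factors, searched on both strands (as GGAATG or CATTCC, with overlapping matches counted). Each is written 5′ to 3′ on the strand of the gene, in lower case with the motif in capitals. The *Thbs2* window is chr17:14694263-14694512 (minus strand), the *Spp1* window, the one nearer to the annotated gene start of the 2 in the table, chr5:104434861-104435110 (plus strand) and the *Thbs4* window chr13:92794819-92795068 (minus strand).
Thbs2: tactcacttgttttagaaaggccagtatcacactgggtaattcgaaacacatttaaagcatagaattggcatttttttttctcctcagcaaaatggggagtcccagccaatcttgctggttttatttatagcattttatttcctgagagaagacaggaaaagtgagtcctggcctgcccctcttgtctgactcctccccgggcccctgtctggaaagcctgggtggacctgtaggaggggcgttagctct
Spp1: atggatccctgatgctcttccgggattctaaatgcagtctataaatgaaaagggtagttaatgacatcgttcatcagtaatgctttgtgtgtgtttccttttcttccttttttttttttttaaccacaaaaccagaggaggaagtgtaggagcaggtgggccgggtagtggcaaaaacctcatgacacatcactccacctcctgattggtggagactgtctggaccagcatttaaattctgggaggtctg
Thbs4: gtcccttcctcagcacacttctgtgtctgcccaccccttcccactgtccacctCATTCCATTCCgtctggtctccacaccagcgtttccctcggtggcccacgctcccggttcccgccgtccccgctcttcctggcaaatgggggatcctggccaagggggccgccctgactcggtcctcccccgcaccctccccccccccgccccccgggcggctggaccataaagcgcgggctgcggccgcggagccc

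The *Thbs4* window held 2 overlapping matches, which begin 197 and 192 bases before the start. The other 9 windows, of *Postn*, *Sparc*, *Spp1*, *Thbs2*, *Thbs3* and *Tnc*, held none. Of all 32851 windows of this length in the table, 12.6% held the motif. A match of letters in so short a window is no evidence of binding, and its lack says nothing of sites elsewhere.

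Receptors of these proteins were read from a list of 17 genes, 16 of which were tested. Of these, 4 rose, 1 fell and 11 did not pass the test, with a median log2 change of 0.12. Among all tested genes 9.28% rose and 7.18% fell. *Cd44*, a receptor of osteopontin and hyaluronan, rose from 41.7 ± 2.85 to 78.2 ± 12.0 CPM (n = 3 each, SD), which is a log2 change of 0.91 (edgeR, adjusted p = 0.00433), and was the only receptor that kept an adjusted p under 0.05 in all 6 fits without a library. For *Stab1*, a scavenger receptor of SPARC on macrophages and endothelial cells, the log2 change was 0.83. For *Itga4* it was 0.63, and for *Itgb1*, the β1 chain shared by most fibronectin receptors, 0.52, a call that was lost in each of the 6 fits that leave out 1 library. The macrophage markers, 12 of 15 of which were higher, moved with *Stab1*, and their part in its values was not tested. DESeq2 called 4 receptors higher and 2 lower, *Itgb8* and *Cd36*, and limma-voom 4 higher and 0 lower. *Itga4* did not pass with library size alone or upper-quartile normalization. *Itgb8*, which pairs with αv and activates latent TGFβ, fell by 2.00 on the log2 scale, from 12.9 ± 8.01 to 3.23 ± 1.75 CPM (SD, n = 3 each; edgeR, adjusted p = 0.034). In the same libraries 6 of 10 Schwann cell markers also fell and 1, *Pmp22*, rose, and their part in the *Itgb8* values was not tested. The thrombospondin receptor *Cd36* had a log2 change of -0.41, with all 3 L1L2-AKO-labelled libraries lower (adjusted p = 0.169 in edgeR's test and 0.0345 in DESeq2's). *Cd47*, another, had one of 0.06, and the αv, α5 and β3 integrin chains *Itgav*, *Itga5* and *Itgb3* lay between -0.16 and -0.05, without passing the test. The number of receptors past the threshold was 1 without L1L2-AKO replicate 1, 3 without L1L2-FF replicate 2 and 2 without each of the other libraries. Among all tested genes the share past the threshold in these fits ran from 7.97% to 17.8%.

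Of 16 related matricellular and SIBLING genes, 8 were tested and 3 of these passed the test, beside 16.5% of all tested genes. Only *Fstl1*, a secreted SPARC-family glycoprotein, rose, from 459 ± 81.4 to 1312 ± 316 CPM (n = 3 each, SD), which is a log2 change of 1.51 (edgeR, adjusted p = 0.00405). *Smoc1*, another secreted relative of SPARC, fell from 259 ± 102 to 105 ± 43.9 CPM and *Vtn*, which encodes vitronectin, from 10.1 ± 5.24 to 2.94 ± 0.580 CPM (SD, n = 3 each), with log2 changes of -1.31 and -1.77 (edgeR, adjusted p = 0.0429 and 0.0206). Without L1L2-FF replicate 1 or L1L2-AKO replicate 2, *Fstl1* alone of these passed the test, beside 8.05% and 7.97% of all tested genes. The tenascins *Tnr* and *Tnn* and the SIBLING genes *Ibsp*, *Dmp1*, *Dspp* and *Mepe* were under 1 CPM in all libraries, while *Tnxb*, the tenascin of connective tissue, had a log2 change of 0.45 that did not pass the test.

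Among 16 enzymes that cross-link or cleave these proteins, and their inhibitors, 6 rose and 0 fell (1 was lower at an unadjusted p under 0.05 in edgeR's test, 1 by DESeq2 and 0 by limma-voom). Over all tested genes 9.28% rose and 7.18% fell. *Lox*, lysyl oxidase, which cross-links collagen and elastin and binds fibronectin, rose from 118 ± 26.9 to 942 ± 379 CPM (n = 3 each, SD), which is a log2 change of 3.00 (edgeR, adjusted p = 0.00125). *Adamts1*, a protease that releases the antiangiogenic fragments of thrombospondin 1 and 2, rose from 232 ± 33.2 to 534 ± 95.8 CPM, with a log2 change of 1.20. *Timp1*, *Timp3*, *Mmp14* and *Bmp1* had log2 changes of 1.34, 0.92, 0.73 and 0.61. *Mmp2*, a gelatinase, had a log2 change of -0.93 (adjusted p = 0.0662 in edgeR's test and 0.0137 in DESeq2's). The number that rose was 2, *Lox* and *Adamts1*, without L1L2-AKO replicate 2 or replicate 3. In these fits 7.97% and 8.54% of all tested genes passed the test, in either direction.

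**Figure D5:**
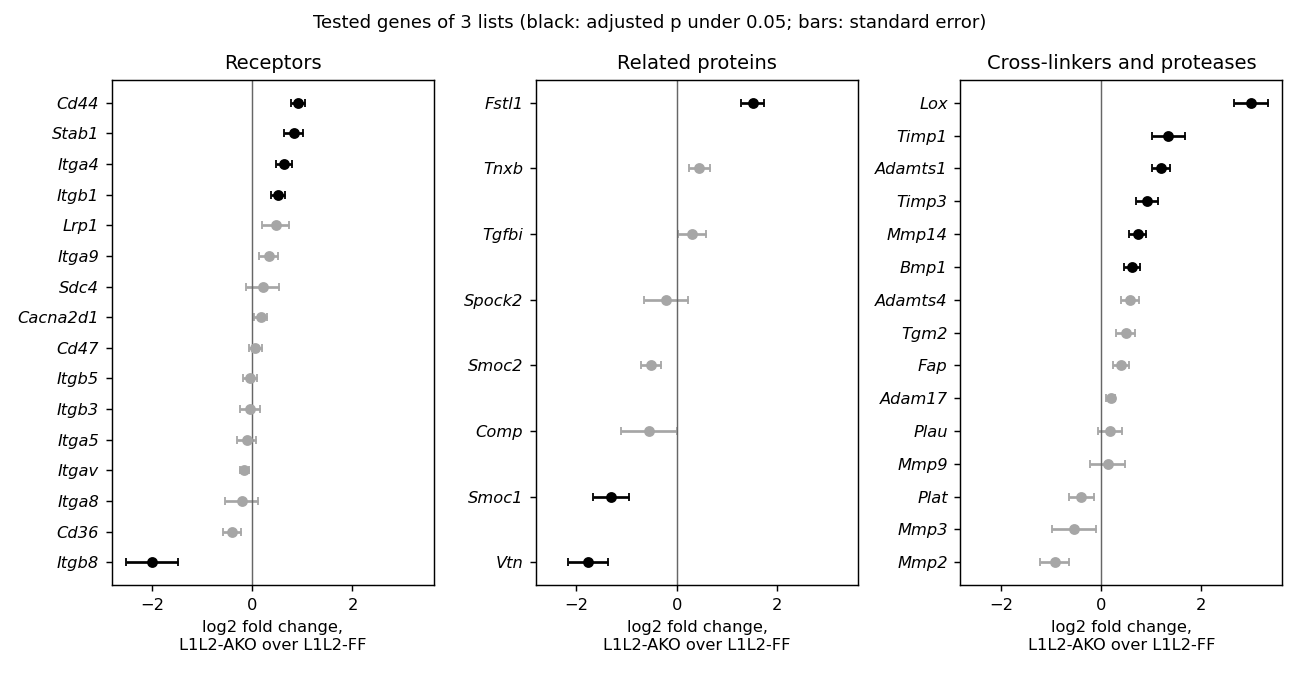
Log2 change with standard error of the tested receptors (left), related proteins (middle) and cross-linkers, proteases and inhibitors (right, 1 gene not shown), in the L1L2-AKO-labelled libraries over L1L2-FF. Black points had an adjusted p under 0.05 in edgeR's quasi-likelihood test. *Lox*, at 3.00, is the point farthest to the right, and *Itgb8*, at -2.00, the one farthest to the left.

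Markers of other cells that make these proteins were set beside them. The 8 platelet markers, platelets being a store of thrombospondin 1, summed to 17.1 to 26.4 CPM in L1L2-FF and 26.8 to 38.4 CPM in the L1L2-AKO-labelled libraries, and their part in the *Thbs1* values was not tested. Of the 6 tested, 3 had log2 changes above 0 and 3 below, with a median of 0.07. *Pf4* passed the test at 0.85, while *Gp1ba* at -0.86 and *Clec1b* at -0.83 did not. Without *Pf4* the sum was 6.86 to 9.59 CPM in L1L2-FF and 5.66 to 7.96 CPM in the L1L2-AKO-labelled libraries, an alternative chosen after seeing the data, and *Gp6* was at 0 counts in 5 of the 6 libraries. The 12 markers of progenitors and fibroblasts, cells in which *Fn1* and *Postn* are abundant, summed to 1916 to 2614 CPM in L1L2-FF and 1263 to 1890.4 CPM in the L1L2-AKO-labelled libraries, with 3 lower, 0 higher and a median log2 change of -0.46. *Fn1* came to 15.1% to 28.5% of that sum in L1L2-FF and to 51.5% to 58.7% in the L1L2-AKO-labelled libraries, and *Postn*, with overlap, to 42.7% to 81.1% and 62.5% to 89.8%. *Col15a1* made up most of that sum, at 1814, 1037 and 1945 CPM in L1L2-FF and 1313, 684 and 930 in the L1L2-AKO-labelled libraries. L1L2-FF replicate 2 had the lowest sum of its genotype but the highest *Dcn*, at 279 CPM against 220 and 149. Within L1L2-FF the percentages therefore follow *Col15a1* in large part. They were not computed without it, so its part in the difference, or the overlap, between the labels was not tested. Of 10 mural cell markers 1 rose and 3 fell, with sums of 1584 to 2004 and 1544 to 1706 CPM. Their median log2 change was -0.74, and DESeq2 called 1 higher and 6 lower. *Mcam*, the most abundant of them, had means of 585 and 677 CPM without passing the test, and *Rgs5*, which fell, 550 and 236 CPM. Of the 12 adipocyte markers 5 fell and 0 rose, with a median log2 change of -0.60. DESeq2 called 8 lower and 0 higher, and limma-voom 5 lower and 0 higher. The most abundant of them, *Lpl* (means of 11746 and 16852 CPM) and *Fabp4* (8164 and 6610 CPM), did not pass edgeR's test, while *Cfd* fell from 3718 to 211 CPM. The part of each of these cell types in the values of the 10 genes was not tested.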

How the data were processed

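Libraries of 4 pooled mice each were grouped by the submitters' labels (3 L1L2-FF, 3 L1L2-AKO). Per the paper and the labels, paired-end BGISEQ-500 reads were aligned to mm10 with HISAT2 2.1.0 and processed with StringTie 1.3.5. The authors deposited raw counts per gene symbol, without normalization. The gene annotation, counting program and strand setting are not given in the sources used here.

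Counts were tested with edgeR 4.0.16 in R 4.3.3: filterByExpr (minimum count 10, minimum total count 15; 15674 of 37384 symbols kept), TMM, quasi-likelihood test, two-sided, Benjamini-Hochberg adjustment over all tested genes, threshold 0.05, which is meant by each adjusted p unless another tool is named. The standard error of a log2 change was taken as its size over √F. CPM were computed by edgeR over the kept genes, with TMM-normalized library sizes. Log2 ratios within a library used counts plus 0.5. Positions and exon lengths are those of GENCODE M21, in which 37274 symbols were matched by symbol or synonym. Plots were drawn with matplotlib 3.10.9. The test was checked on simulated counts. Replicates differed by more than sampling noise, with a chi-square per degree of freedom of at least 30.3. The deviations of same-numbered libraries from their group means had correlations of 0.188, 0.255 and -0.0544. Those of differently numbered libraries ran from -0.324 to 0.211. The numbers were not taken as pairs, and a fit with replicate number as a block is given as an alternative.

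Named were all 10 genes, the pathway genes past the threshold (others of these lists are given for their known role and were picked after their values were seen), *Lats1*, *Lats2* and *Col1a1*. The values of 1 gene among the cross-linkers and proteases are not reported here. The genes and lists were chosen with earlier results of these data known.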

Additional observations from a re-analysis of the deposited data

How the results depend on the processing

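Over 9 alternatives that keep all libraries (DESeq2's size factors, library size alone, upper-quartile normalization, DESeq2 1.42.0, limma-voom of limma 3.58.1, edgeR's robust setting, no count filter, at least 10 counts in every library, and the replicate block), *Thbs1*, *Thbs2*, *Spp1* and *Fn1* kept their direction and an adjusted p under 0.05, and no log2 change of the 10 genes changed sign. *Sparc* passed only with DESeq2 (adjusted p = 0.0063) and *Sparcl1* only with the replicate block (log2 change -0.71, adjusted p = 0.0287). The replicate block changed no other call among the 10 genes. Under it 4 of the 10 endothelial markers were lower (*Tek*, *Erg*, *Emcn* and *Cldn5*), *Itgb1* lost its call (adjusted p = 0.0674), *Timp1* and *Bmp1* lost theirs (0.0574 and 0.065) and *Mmp2* was lower (0.0403), which left 4 cross-linkers and proteases higher and 1 lower. *Mmp2* was also lower in the fit without the count filter and in the fit without L1L2-FF replicate 3. With limma-voom *Itgb8* and *Vtn* did not pass (0.0519 and 0.0522), while under the replicate block *Itgb8* had an adjusted p of 0.00213 in edgeR's test. The block gave 2514 genes past the threshold in place of 2580. The cause was not tested. The scalings moved the median of all genes by at most 0.0349 (log2). With each library left out in turn, 1281 to 2845 of all genes, 3 to 4 of the 10 genes, 1 to 3 receptors, 1 to 3 related genes and 2 to 6 cross-linkers and proteases were past the threshold, with fewer libraries in each fit. *Fn1* lost its call in 5 of these 6 fits. The log2 change of *Thbs3* ranged from -0.03 to 0.30, and was below 0 (-0.0289) only without L1L2-FF replicate 3. A prior of 2 counts in place of 0.5 moved no difference of log2 ratios by more than 0.02. Depth limits *Spp1*, with 14 to 18 counts per L1L2-FF library, and *Thbs4*, with 34 to 64 counts in any library.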

Other observations

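Of 10 T and B cell markers, 9 neutrophil and mast cell markers and 8 red cell markers tested, 0 passed edgeR's test in either direction, with median log2 changes of 0.95, 0.22 and -0.19. At an unadjusted p under 0.05 in edgeR's test 2 of the T and B cell markers were higher, 1 neutrophil or mast cell marker was lower and 0 red cell markers differed, and DESeq2 called 1, 0 and 0, limma-voom 0 in each list. Of 10 skeletal muscle markers 6 were tested and 0 passed (3 lower at an unadjusted p under 0.05, 3 by DESeq2 and 1 by limma-voom), at summed levels of 12.0 to 21.8 CPM in L1L2-FF and 3.49 to 10.2 CPM in the libraries labelled L1L2-AKO.

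Tendon is a tissue rich in *Thbs4*. Of 10 markers of tendon and cartilage 8 were under 1 CPM in every library, among them *Tnmd*, *Scx* and *Col2a1*. *Fmod*, the marker of that list that passed the test, encodes fibromodulin, a small leucine-rich proteoglycan that binds collagen fibrils. It was counted at 6.22, 4.58 and 4.09 CPM in L1L2-FF and 72.3, 371 and 443 CPM in the libraries labelled L1L2-AKO, and its log2 change was 5.89 (SE 0.676, edgeR's quasi-likelihood test, adjusted p = 0.00141). As for *Thbs1* and *Thbs2*, the lowest of these libraries was replicate 1. *Fmod* was singled out after its values were seen.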
